A study of Mus musculus with 7 samples.

Results

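The features described here are array probes that were detected on each of 3 young arrays and on 0 of 4 geriatric arrays of mouse muscle stem cells. Of 55681 probes with 36406 names, 175 probes with 165 names met this rule. They made up 0.470% of the 37265 probes detected on every young array. The members were chosen by this detection pattern, which is the contrast of geriatric with young cells itself, so every difference between the age groups below is a description of the members and carries no test. A probe counted as well above background on an array when at least 50% of its spots had the scanner software's flag for that.

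RNA came from satellite cells, which are the resident stem cells of skeletal muscle, of male C57BL/6 mice whose muscle had not been injured. Young mice were 2, 2 and 3 months old and geriatric mice were 28, 28, 29 and 30 months old. All cells had been sorted as integrin α7+ and CD34+ and as negative for CD31, CD45, CD11b and Sca1, and the RNA, from few cells, was amplified before Cy3 labelling of the cDNA. The labels do not say if a sample was 1 mouse or several pooled, so the spread given is that between these samples and may be partly technical. Geriatric replicates 1 and 2 shared a sample name and differed by a median of 0.0873 log2 units, against 0.346 to 0.452 for other pairs of arrays, so they were averaged and means rest on 3 young and 3 geriatric samples. In bulk RNA, fewer cells that hold a transcript and less transcript per cell cannot be told apart.

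Satellite cells rest outside the cell cycle in uninjured muscle and enter it after damage. Dividing cells copy DNA in S phase, pack it into histones, separate chromosomes in mitosis under the kinase Cdk1 and part in cytokinesis, where the kinesin Kif23 bundles the microtubules of the central spindle. Long intergenic noncoding RNAs (lincRNAs) are transcripts from between genes that code for no known protein, and most are present at low levels.

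By the names that the array design gives, 59 of the 165 names were gene symbols, 65 were lincRNA loci, 17 were transcript accessions, 7 were Gm or Rik numbers and 17 were probes with no gene name. LincRNA probes made up 42.9% of the member probes, against 28.5% of the probes well above background on all young arrays. Gene symbols made up 33.7% of the members, against 48.5%. The median GC content of the members was 41.7%, against 45.0%. Of the member probes, 174 had a position on mm9, of which 6 lay on chromosome X and 0 on chromosome Y.

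For 7 lincRNA names several probes met the rule. The sequences below show some of these probes and a pair on opposite strands. They are printed as the array files give them, 5′ to 3′ and with positions on mm9. The first pair comes from the minus strand of 1 locus on chromosome 2 and is shifted by 4 bases, so that both probes read nearly the same stretch. Capitals mark the 56 bases they share.
A_30_P01027389, chr2:153167695-153167754: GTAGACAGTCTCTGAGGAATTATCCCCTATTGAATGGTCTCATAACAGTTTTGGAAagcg
A_30_P01017538, chr2:153167699-153167758: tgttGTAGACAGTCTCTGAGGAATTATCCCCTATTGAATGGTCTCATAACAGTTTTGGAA

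A second pair lies on opposite strands of chromosome 1. The first of them belongs to a lincRNA locus on the plus strand and the other to the transcript ENSMUST00000150749 on the minus strand. Capitals mark the 12 bases that pair with each other.
A_30_P01027556, chr1:64726510-64726569: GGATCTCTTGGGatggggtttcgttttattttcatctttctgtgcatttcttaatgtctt
A_55_P2054342, chr1:64726462-64726521: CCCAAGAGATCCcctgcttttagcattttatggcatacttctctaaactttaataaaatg

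The next 3 probes lie in a row within 257 bases of the minus strand of chromosome 5 and are all the probes of their locus.
A_30_P01028565, chr5:77227403-77227462: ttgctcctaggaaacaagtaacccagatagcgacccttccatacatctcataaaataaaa
A_30_P01029935, chr5:77227540-77227599: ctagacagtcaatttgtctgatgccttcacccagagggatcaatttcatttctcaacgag
A_30_P01018782, chr5:77227600-77227659: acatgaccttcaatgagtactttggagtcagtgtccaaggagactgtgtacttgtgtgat

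Of the coding genes, Kif23 and Cdk1 are shown by the first 30 bases of each of their probes. Kif23 has 1 probe, which covers 241 bases of the minus strand of mm9 chromosome 9 (61767492 to 61767732) and so skips part of the genome between its ends. Cdk1 has 3, of which the first below is the member.
Kif23, A_51_P324287, chr9:61767492-61767732: atcggttcagtttactgatattgagacttt
Cdk1, A_55_P2048588, chr10:68801072-68801131: ttcttaatttcctacgtataacttaattaa
Cdk1, A_55_P2016652, chr10:68801053-68801112: aacttaattaacatgtaaatattattccat
Cdk1, A_55_P2016647, chr10:68799513-68799572: atacactaaaaatttgggtagccaggaggt

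All arrays lay on 1 slide, the young arrays and geriatric replicate 1 in its first row and geriatric replicates 2 to 4 in its second. The flag for well above background was set wherever the background-subtracted signal passed 5 times the array's own additive error, which the highest spot without and the lowest spot with the flag showed on each array. This limit was 27.3 to 29.6 intensity units on the young arrays and 27.5 on geriatric replicate 1, against 38.5, 53.2 and 34.6 on geriatric replicates 2, 3 and 4. As a percent of the array's 75th percentile of the processed signal (1355 to 1636 units) it was 1.97%, 1.92% and 1.67% for the young arrays in order of number and 1.72%, 2.68%, 3.31% and 2.55% for the geriatric ones. A probe therefore needed a higher relative signal to be called on the 3 geriatric arrays of the second row than on any young array.

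Under each array's own limit, 175 probes were on all young and no geriatric arrays and 40 were on all geriatric and no young arrays. With 1 limit for all arrays (3.31% of the 75th percentile, chosen after seeing the data) these counts were 90 and 103, and 51 of the 90 were members. With the highest of the 7 limits for young and the lowest for geriatric arrays, also chosen after seeing the data, 30 members were left. Of the 175 members, 74 had a signal on at least 1 geriatric array above the highest young limit, as a percent of the 75th percentile.

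**Figure D1:**
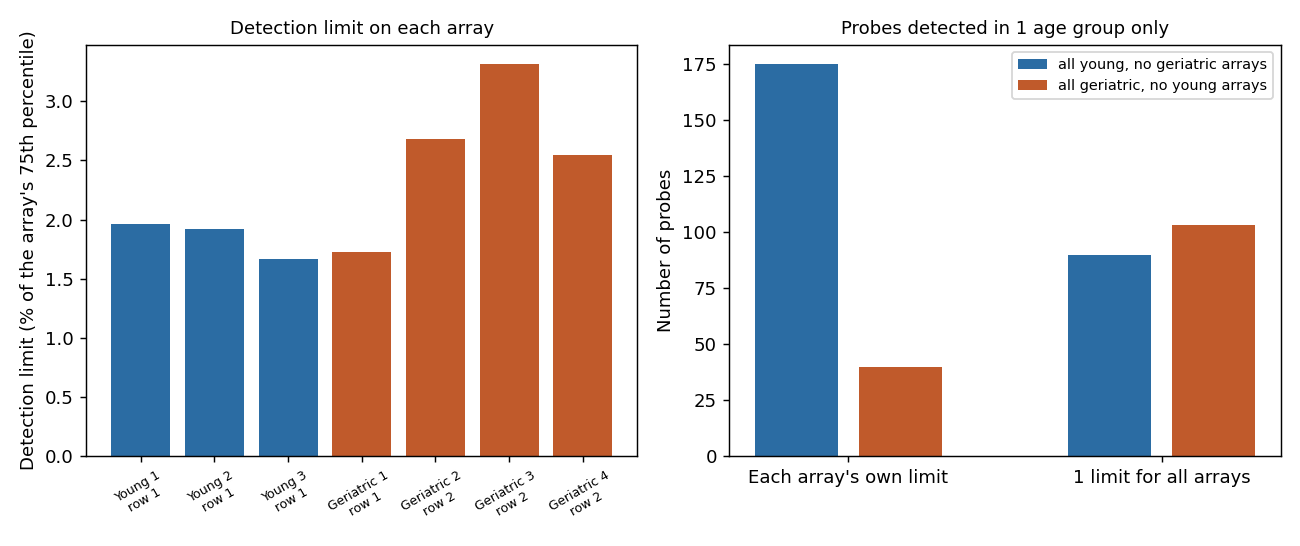
Left, the detection limit of each array as a percent of its 75th percentile of processed signal, with the row of the slide. Right, the number of probes detected on all arrays of 1 age group and none of the other, under each array's own limit (175 and 40) and under 1 limit for all arrays (90 and 103).

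Levels below are log2 processed signals after each array's 75th percentile was taken off, so that 0 is the 75th percentile of an array. The members were dim in young cells. Their median young level was -4.64 (range over members -5.77 to -2.35), against -0.98 for all probes detected on every young array, and 0 members lay above that median. The median of the members was -4.77, -4.56 and -4.66 on the 3 young arrays. On the 4 geriatric arrays it was -6.95, -7.10, -6.59 and -6.52, in the order of their numbers. The young medians lay within 0.3 of each other, and each geriatric median lay below all of them.

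The median difference over the members was -2.15. Within the first row of the slide, geriatric replicate 1 lay below every young array for 175 of 175 probes, with a median difference of -2.60. Members had to pass the limit on each young array and not on geriatric replicate 1, and the limits of that row were close. The rule thus nearly fixes this count, and nothing is read from it. Geriatric replicate 2, with the same sample name but in the second row, was higher than replicate 1 by a median of 0.45. All 3 geriatric samples lay below all 3 young samples for 138 of the 175 probes, where 5.96% of the 41247 probes tested did so. The rule used this contrast, so nothing is read from that share. The other 37 met the rule although their scaled levels overlapped between the age groups.

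Many geriatric levels were not free measurements. Of 700 geriatric values of the members, 248 were surrogates that the scanner software had put in for signals near background, against 0 young values. For that reason the size of a fall is given as a bound. It holds for these scaled values only and is no bound under the other signal corrections given below. Each geriatric value under the lowest signal that was well above background on its array was first raised to that signal. That signal was -6.22, -5.37, -5.78 and -5.49 on geriatric arrays 1 to 4. On each of them it lay under the detection limit as a share of the 75th percentile. A floor at that limit, which was not used, could give smaller folds. The young mean was then set over the geriatric mean. This least fold had a median of 2.01 and quartiles of 1.46 and 2.84. It was 2 or more for 88 probes, 4 or more for 18 and under 1.5 for 46, and 4 probes fell below 1 and are given no fold.

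**Figure D2:**
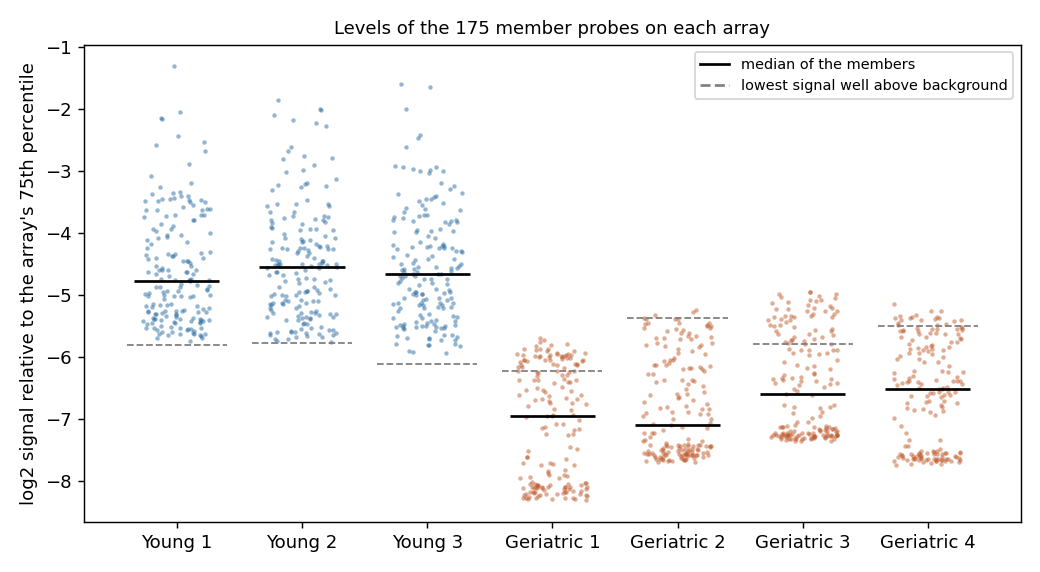
Log2 level, relative to the array's 75th percentile, of the 175 member probes on each of the 7 arrays. Points are probes, black lines their medians (-4.77, -4.56 and -4.66 on young and -6.95, -7.10, -6.59 and -6.52 on geriatric arrays), and dashed lines the lowest signal well above background on that array.

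In terms of the flag's limit, the lowest young signal of a member had a median of 1.35 times the limit of its array and the highest geriatric signal a median of 0.711 times. For 105 of the 175 probes the lowest young signal was under 1.5 times the limit, and for 73 the highest geriatric signal was above 0.8 times. A wide gap, with every young array at 2 or more times the limit and every geriatric array at 0.5 times or less, was found for 18 probes.

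Just inside the rule, the lowest young signal of Cdc6 was 1.01 times the limit, that of Opn3 1.02, of Hist1h3a 1.02, of Gpr4 1.03 and of Gimap4 1.03. Their highest geriatric signals were 0.0047, 0.928, 0.361, 0.937 and 0.934 times the limit. The difference of Gpr4, -0.79, was -0.20 without young replicate 1. Just outside it lay probes of Cul2, Eomes, Lcn6, Gng13 and Lrrc4b (which has a member among its other probes), which were on all young arrays and on 1 geriatric array, at 1.00, 1.02, 1.02, 1.02 and 1.02 times the limit there. In all, 454 probes were on 3 young and 1 geriatric arrays and 475 on 2 young and 0 geriatric arrays.

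**Figure D3:**
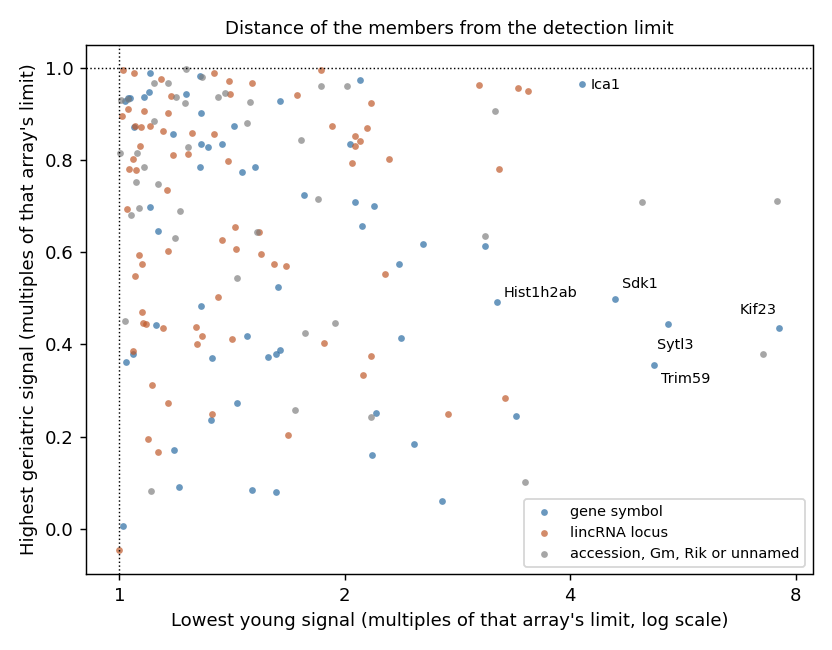
Lowest young signal (log axis) against highest geriatric signal of the 175 members, each as a multiple of the detection limit of its array, with dotted lines at the limit. Kif23, Trim59, Sytl3 and Sdk1 lie far from the young limit, while 105 members lie under 1.5 times it.

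The gene symbols with the largest least fold included genes of cytokinesis, chromatin, vesicle traffic and adhesion. Kif23, the kinesin of the central spindle, was at -2.05, -2.09 and -2.92 on the young arrays, in order of replicate number here and below, and at -8.12, -6.39, -7.22 and -7.55 on the geriatric arrays. The young values lay more than 3 log2 units above the highest geriatric one, and the fall was at least 10.1-fold. Trim59, a tripartite motif protein, was at -3.19, -2.27 and -1.59 in young and at -7.24, -6.91, -7.19 and -7.48 in geriatric cells, at least 10.1-fold lower.

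Sytl3, a synaptotagmin-like protein of vesicle traffic, was on its member probe at -2.43, -2.02 and -3.51 against -7.08, -6.89, -7.28 and -6.84, at least 8.18-fold lower. Hist1h2ab, a histone H2A gene whose transcripts are made in S phase, was at -2.69, -4.09 and -1.65 against -6.96, -7.22, -6.42 and -6.85, at least 7.37-fold lower. Its difference was -3.98, and -4.62 without young replicate 2. Sdk1, an adhesion molecule of the immunoglobulin superfamily, was at -2.58, -2.61 and -3.79 against -7.70, -6.72, -7.35 and -6.39, at least 6.48-fold lower. In each of these the age groups were apart by over 2 log2 units. Histone genes are close in sequence, so the signal of a histone probe cannot be assigned to 1 gene with certainty.

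Ica1, a protein of secretory granules, came close to detection in geriatric cells. It was at -3.75, -3.24 and -3.29 in young cells and at -7.12, -5.38, -6.81 and -5.58 in geriatric cells, where its highest signal was 0.966 times the limit, and the fall was at least 4.81-fold. Usp13, a deubiquitinating enzyme, was much higher on 1 young array than on the others. Its member probe was at -1.31 on young array 1 but -4.26 and -4.80 on young arrays 2 and 3, with geriatric values of -8.16, -7.43, -7.22 and -7.61. Its difference was -4.08 with all samples and -3.01 without young replicate 1, and -4.75 without young replicate 3.

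**Figure D4:**
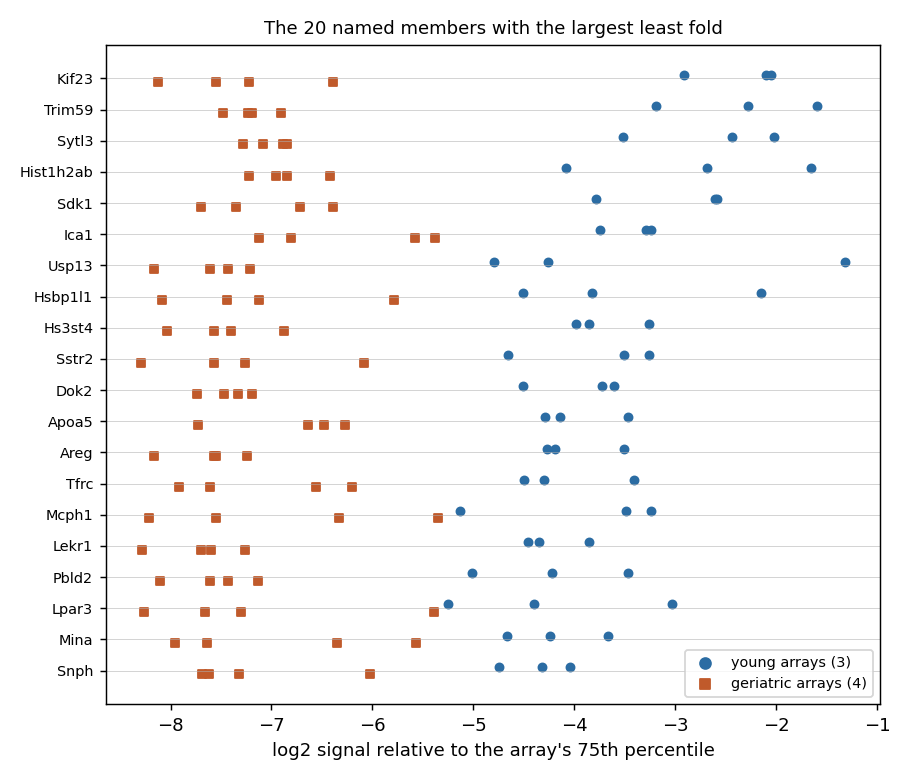
Log2 level, relative to the array's 75th percentile, of the 20 gene symbols with the largest least fold, from Kif23 (at least 10.1-fold) to Snph (at least 2.50-fold). Circles are the 3 young arrays and squares the 4 geriatric arrays, and the groups do not overlap in any of the 20.

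Among signalling genes, Areg, the epidermal growth factor receptor ligand amphiregulin, was at -3.50, -4.27 and -4.19 on the young arrays and at -8.17, -7.57, -7.24 and -7.55 on the geriatric arrays. Its highest geriatric signal was 0.0596 times the limit, the lowest such value among the 20 leading symbols, and the fall was at least 3.25-fold. Dok2, an adaptor that binds activated tyrosine kinases, was at -3.61, -4.50 and -3.73 against -7.74, -7.48, -7.19 and -7.33, at least 3.35-fold lower. The highest geriatric signal of Dok2 was 0.251 times the limit, so neither gene came near detection in geriatric cells.

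Sstr2, a somatostatin receptor, was at -3.50, -3.26 and -4.66 against -8.29, -7.57, -7.26 and -6.08, at least 3.69-fold lower. Lpar3, a receptor for lysophosphatidic acid, was at -4.40, -5.25 and -3.03 against -8.27, -7.66, -7.30 and -5.39. Here young array 2 and geriatric array 4 were nearly level, and the least fold was 2.69. The Lpar3 difference was -2.66, but -2.06 without young replicate 3 and -3.41 without geriatric replicate 4.

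Of the other leading symbols, Hs3st4, an enzyme that sulfates heparan sulfate chains, was at least 3.98-fold lower and Hsbp1l1 at least 4.59-fold lower. Hsbp1l1 was at -2.14 on young array 1 but at -4.50 and -3.82 on the others, and its difference was -3.40 with all samples and -2.73 without young replicate 1. Apoa5, an apolipoprotein of triglyceride transport, was at least 3.30-fold lower and Tfrc, the transferrin receptor through which cells take up iron, at least 3.08-fold lower on its member probe. Mcph1, which acts in chromosome condensation, was at least 3.02-fold lower. On their member probes, Lekr1, Pbld2, Mina (a chromatin and ribosomal oxygenase) and Snph, which docks mitochondria in axons, were at least 2.77-, 2.74-, 2.69- and 2.50-fold lower. For Mcph1, young array 3 at -5.13 and geriatric array 3 at -5.34 were nearly level. Its difference of -2.57 became -3.16 without either of them.

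Of 91 tested genes in 3 cell cycle lists, 4 were members (4.4%), where 59 of the 14237 gene symbols tested were (0.414%). The lists were made with earlier results of these data known, so nothing is read from the pair of shares. Of the 17 tested genes of a list of cytokinesis and the central spindle, 1 (Kif23) was a member, as were 1 of 33 genes of mitosis and spindle assembly (Cdk1), 2 of 41 genes of DNA replication (Cdc6 and Mcm10) and 2 of 38 histone genes (Hist1h2ab and Hist1h3a). Cdk1, the kinase that starts mitosis, was at -5.26, -3.53 and -4.55 on its member probe in young cells and at -7.81, -7.63, -7.27 and -7.63 in geriatric cells, at least 2.36-fold lower. Mcm10, which helps to start replication forks, was at -4.54, -4.29 and -5.20 against -7.93, -7.48, -7.23 and -6.70, at least 2.02-fold lower. The age groups were apart in both. The young signals were 1.43 to 4.71 times the limit for Cdk1 and 1.64 to 2.65 times for Mcm10.

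Cdc6, which loads the replicative helicase, was at -3.43 on young array 1 and at -5.76 and -5.64 on young arrays 2 and 3, with array 2 at the edge of detection, against -8.27, -7.67, -7.33 and -7.70 in geriatric cells. The Cdc6 difference was -2.72, and -1.96 without young replicate 1. Hist1h3a, an S phase histone H3 gene whose probe lies with that of Hist1h2ab within 10424 bases of mm9 chromosome 13, was at -5.01, -4.60 and -5.80 against -8.09, -7.49, -7.19 and -6.77, at least 1.46-fold lower. Hist2h3c2-ps (now H3c15), a histone name outside the list, also met the rule and was picked after its values were seen. Its difference was -1.88, and its age groups overlapped in the authors' values. Further members that act in division were singled out after their values were seen. Cenpm, a centromere protein, was at least 1.51-fold lower and Fam64a (now Pimreg), which regulates the metaphase to anaphase step, at least 2.05-fold lower, but the highest geriatric signal of Fam64a was 0.948 times the limit.

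The other genes of these pathways were read by their brightest probe. With limma (Benjamini-Hochberg over all 27391 features, threshold 0.05), 0.0256% of features passed, 7 in all, and 0.0146% passed as lower in geriatric cells. Leaving out young replicate 1, young replicate 2 or geriatric replicate 4 took the 7 to 0, with 1621, 2145 and 2103 features at an unadjusted limma p under 0.05, and leaving out young replicate 3 or geriatric replicate 3 took it to 2. Of the members, 84 were the brightest probe of their name and 3 of these were among the 7, which the rule itself favours. Of 3 lists together (cytokinesis, mitosis, DNA replication), 87 tested genes were not members. Of these, 0 passed the limma test and 8 had an unadjusted limma p under 0.05, where 1983 of all 27391 features did. All 3 geriatric samples lay below all 3 young samples for 9 of the 87 (10.3%) and above for 4. Of all 27391 features, 1583 (5.78%) lay below and 1933 above. Their median difference was -0.21, against -0.0049 over all features.

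Among those 9, Smc4, a condensin subunit, was at -0.82 ± 0.33 in young cells (SD, n = 3 here and below) against -2.27 ± 0.49 in geriatric ones (limma adjusted p = 0.357). Racgap1, the partner of Kif23 in the central spindle, was at -1.17 ± 0.39 and -2.01 ± 0.07 (limma adjusted p = 0.503). Mki67, a marker of cycling cells, was at -1.43 ± 0.75 and -2.48 ± 0.43 (limma adjusted p = 0.693). Plk1, a mitotic kinase, lay on the other side, at -3.42 ± 0.28 in young and -2.40 ± 0.25 in geriatric cells (limma adjusted p = 0.365). None of the 4 passed the test. Of 36 tested histone genes that were not members, the 3 geriatric samples lay below the young ones for 9 (25%) and above for 3. Of all 27391 features, 1583 (5.78%) lay below and 1933 above. The median difference of the 36 histone genes was -0.17. Histone probes can share signal, so these are not 36 separate readings. Of the 36, 0 passed the limma test and 8 had an unadjusted limma p under 0.05, where 1983 of all 27391 features did.

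The remaining pathway lists held 3 members, 1 each in the lists of epidermal growth factor ligands and receptors (9 tested), of DOK and kinase adaptors (16 tested) and of immunoglobulin and cadherin adhesion molecules (26 tested). Lists of the Notch, Wnt, FGF, and TGF-beta and BMP pathways, of chemokines and cytokines, extracellular matrix, DNA damage response, myogenic regulators, ion channels, immediate early genes and interferon-stimulated genes held 0 members.

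The satellite cell label was checked against its markers. All 17 listed satellite cell markers were well above background on every array, with a summed signal of 246 to 313 times the 75th percentile on young and 272 to 288 times on geriatric arrays. None of the 12 lists of cell type markers held a member. The sums of the lymphocyte list ran from 1.81 to 2.08 in young and 1.90 to 2.21 in geriatric arrays. The macrophage list summed to 4.91 to 5.41 in young and 4.85 to 5.39 in geriatric arrays without Itgam. The Itgam probe alone, of the gene of CD11b, against which the cells were sorted, stood at 85.6 to 95.8 and 83.1 to 107.7 times the 75th percentile. Cd3d, Cd3g, Ms4a1, C1qa, C1qc, Ccr2, Lyz2 and Mrc1 did not rise well above background on any of the 7 arrays. Both lists also held markers that all 7 arrays detected. For lymphocytes these were Cd2, Cd3e, Cd4, Cd79a, Cd8a, Lck, Ncr1 and Nkg7. For macrophages they were C1qb, Cd14, Csf1r, Fcgr1, Itgam and Ptprc, the gene of CD45. Transcripts of both lists were thus present in both age groups.

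Several members are known from blood or bone-resorbing cells, and are named here after their values were seen. Fgr, a kinase of myeloid cells, was at least 1.44-fold lower in geriatric cells and Irf4, a transcription factor of lymphocytes, at least 2.27-fold lower. The protease Ctsk and the phosphatase Acp5, both of osteoclasts, were at least 2.13- and 1.86-fold lower. For Fasl, a death ligand, and Gimap4, a GTPase of lymphocytes, the least folds were 1.32 and 1.21. Fibro-adipogenic markers summed to 44.0 to 59.7 in young and 56.8 to 65.2 in geriatric arrays, with Pdgfra not well above background on any. Of 11 tested genes of that list, all geriatric samples lay above all young ones for 3 and below for 0. Of all 27391 features, 1933 lay above and 1583 below. Dcn was at 2.45, 2.54 and 1.52 on young and 2.48, 2.58, 4.35 and 4.29 on geriatric arrays. Lum and Ly6a were also highest on geriatric arrays 3 and 4, while Col1a1 and Col3a1 were lowest on geriatric array 4. Endothelial markers summed to 8.28 to 9.86 in young arrays and to 12.7, 13.2, 8.95 and 13.9 on geriatric arrays 1 to 4. The Tek probe made up most of each sum. Its log2 levels were 3.042, 3.072 and 2.679 on young and 3.415, 3.475, 2.868 and 2.989 on geriatric arrays. On geriatric arrays 1 and 2, Eng and Flt1 also lay above every young array, but Egfl7, Esam, Cldn5 and Fabp4 lay below. No rise of the whole list is read from the sums. Geriatric array 4 stood apart on Fabp4 (1.17), Pecam1 (-0.89), Egfl7 (-1.02) and Tie1 (-1.08), each higher there than on any other array. The part of other cells in the members was not tested.

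Of the 59 gene symbols, 34 had 1 probe on the array and 25 had others, so that the same name could be read elsewhere. On their brightest other probe the median difference of the 25 was -0.31, with 15 lower and 10 higher in geriatric cells, and 13 of the 25 were well above background there on all 7 arrays. The largest rises on these other probes were those of Usp13 (1.23, on 0 young and 1 geriatric arrays) and Lekr1 (0.93, on 2 young and 3 geriatric arrays). No symbol had 2 member probes. These other probes belong to the same contrast and are given as a description.

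For Trim59 and Cdk1 a second probe was also lower in geriatric cells, and each was detected on 1 geriatric array. The other probe of Trim59, at 68839250 to 68839309 on mm9 chromosome 3 beside the member at 68839402 to 68839461, was at -3.40, -2.84 and -2.45 on young and at -8.28, -7.67, -4.60 and -5.69 on geriatric arrays, where geriatric replicate 3 was detected. Its difference was -3.19, against -4.89 on the member. A Cdk1 probe that overlaps the member was at -4.29, -2.62 and -3.49 on young and at -5.57, -6.03, -6.93 and -7.54 on geriatric arrays, where geriatric replicate 1 was detected. Its difference was -3.29, against -3.09 on the member. The third Cdk1 probe did not follow: it was at -3.38, -3.47 and -3.11 against -3.38, -2.96, -3.19 and -3.03, well above background on all 7 arrays, and its groups overlapped.

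Hs3st4 split the geriatric samples on its other probe. That probe was at -1.84, -2.09 and -2.31 on young arrays, at -8.18 and -7.43 on geriatric replicates 1 and 2, and at -4.74 and -3.27 on geriatric replicates 3 and 4, which were well above background. Dach1, a transcription cofactor picked after its values were seen, was on all 7 arrays by its other probe, with young cells at -3.30 ± 0.85 and geriatric cells at -4.65 ± 0.60.

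The 5 symbols next described were taken by the geriatric level of their brightest other probe, the highest of the 25, whichever way that probe differed with age. On that probe Qk, an RNA-binding protein of the STAR family, stood at 3.14 ± 0.25 (young) and 3.17 ± 0.14 (geriatric), and its member probe at -4.90 ± 0.23 and -6.59 ± 0.41. Rps6kb1, the ribosomal S6 kinase, was at 2.51 ± 0.12 and 2.53 ± 0.32, and its member probe at -5.00 ± 0.51 and -7.59 ± 0.34. Mina was at 0.44 ± 0.36 and -0.10 ± 0.24, Clps (colipase) at -1.76 ± 0.24 and -1.72 ± 0.07, and Tfrc at -2.03 ± 1.04 and -2.08 ± 0.75. For these genes the rule describes 1 probe and not the gene's transcripts as a whole. The Sytl3 probe next to the member was likewise on all 7 arrays, at -2.03 ± 0.34 in young and -2.35 ± 0.44 in geriatric cells.

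**Figure D5:**
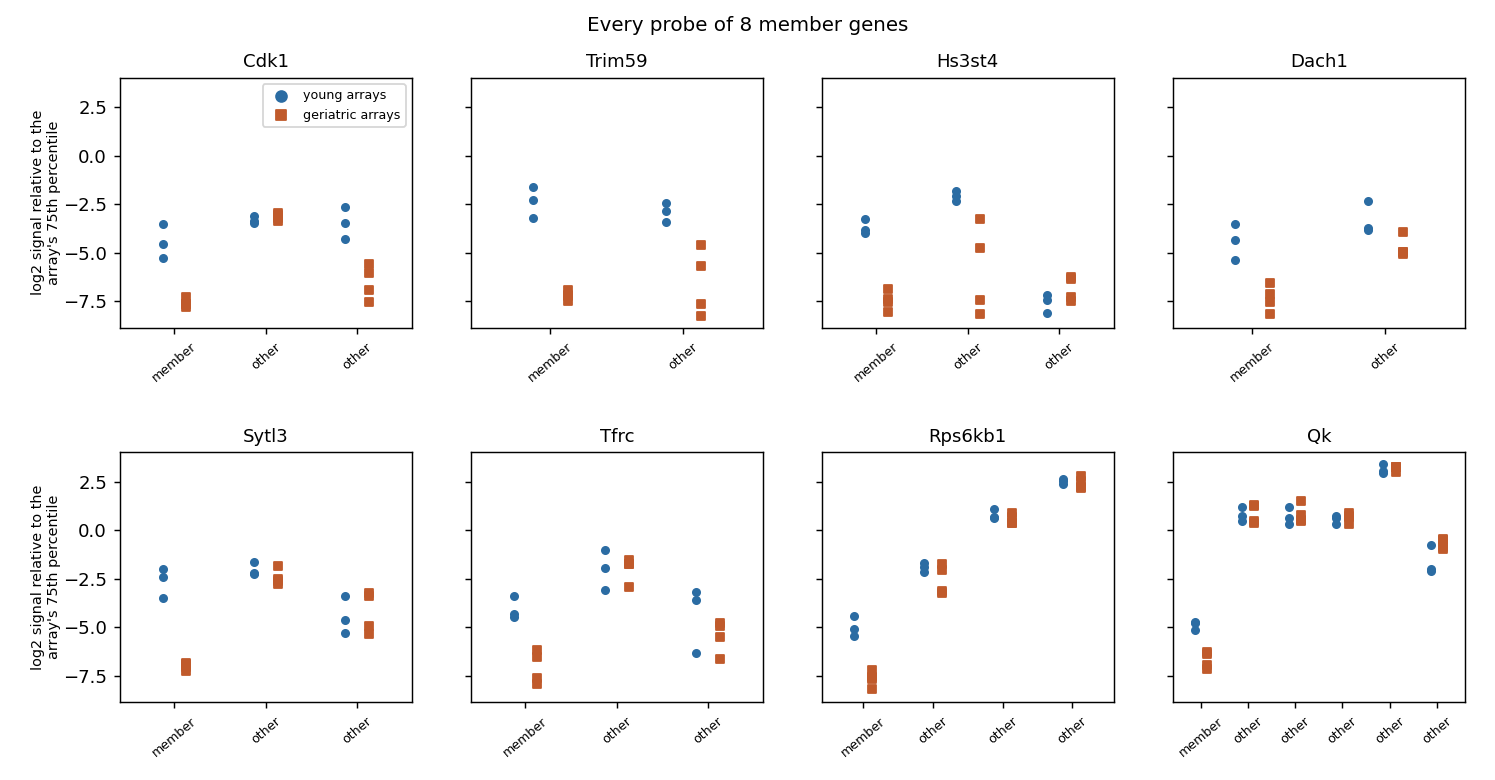
Log2 level, relative to the array's 75th percentile, of every probe of 8 genes, with the member probe first and then the others; circles are young and squares geriatric arrays. For Trim59 and for 1 Cdk1 probe the young arrays lie above the geriatric ones on both probes, while the brightest Qk and Rps6kb1 probes stand near 3 with the age groups together.

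At the lincRNA locus on the minus strand of chromosome 5 shown above, all 3 probes met the rule. The first was at -3.35, -2.23 and -4.31 on young and at -6.31, -6.94, -7.26 and -6.41 on geriatric arrays, at least 5.26-fold lower, the most of any lincRNA probe. The middle one was at -3.40, -3.13 and -4.43 against -7.87, -7.58, -7.27 and -7.72, at least 4.10-fold lower. The third was at -5.63, -4.32 and -5.54 against -8.13, -7.46, -7.15 and -7.63, and its lowest young signal was 1.00 times the limit. Young array 2 was the highest of the young arrays on each of the 3.

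On chromosome 2, the 2 probes shifted by 4 bases gave -4.65, -4.51 and -4.91 and -4.98, -4.63 and -5.34 on the young arrays. On the geriatric arrays they gave -8.12, -7.42, -6.43 and -5.40, and -8.20, -7.58, -7.25 and -5.37. The arrays kept nearly the same order on both, which share most of their bases, with geriatric array 4 the nearest to the limit. Without geriatric replicate 4 the difference of A_30_P01017538 went from -1.86 to -2.59. Their locus has 9 probes, of which these 2 were members.

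The pair on opposite strands of chromosome 1 also moved alike across arrays. The lincRNA probe was at -3.46, -5.38 and -3.24 on young and -7.64, -7.55, -6.98 and -6.48 on geriatric arrays. The ENSMUST00000150749 probe was at -3.34, -5.40 and -2.93 against -8.18, -7.51, -7.28 and -5.94. Young array 2 was low on both, and without it their differences went from -2.99 to -3.67 and from -3.13 to -3.88. At 4 further lincRNA loci (chromosomes 2, 4, 5 and 6), probes of both strands were members. On chromosome 5 (25177801 to 25177918) the minus probe was at -5.44, -4.67 and -2.46 and the plus probe at -4.63, -3.79 and -2.00 on young arrays, with young array 3 highest on both. Without it their differences went from -2.93 to -2.06 and from -3.51 to -2.78. Whether the labelling kept the strand of the RNA is not stated in the labels, so signal from both strands cannot be told apart from signal of 1.

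In all, 12 groups of member probes lay within 100 kb of each other, holding 30 probes, and 8 of these groups held more than 1 name. The lincRNA name with the most member probes lay on the plus strand of chromosome 1, where 4 of its 5 probes were members within 286 bases. They were at least 1.57- to 2.3-fold lower, and the difference of its other probe was -0.45. The remaining names with several member probes lay on chromosomes 4, 6 and 17. Of the 65 lincRNA loci, 63 had other probes. Their brightest other probe had a median difference of -0.05 and was lower in geriatric cells for 35 of the 63, and at 42 loci some other probe was detected on all 4 geriatric arrays.

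Of the features with no gene symbol, 3 had a least fold above the rest. The unnamed probe A_55_P2239758 (mm9 chr6:118835501-118835560) was at -2.16, -2.75 and -2.62 on young and -7.52, -6.88, -7.12 and -6.64 on geriatric arrays, at least 9.06-fold lower. ENSMUST00000122937, described in the array file as a clone with a retained intron, was at -2.54, -2.81 and -2.98 against -6.37, -6.92, -7.25 and -7.52, at least 7.52-fold lower. The unnamed probe A_55_P2172779 was at least 6.92-fold lower. Both of the first 2 had young values within 0.6 log2 units of each other.

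Among the young samples the members had a median SD of 0.57 log2 units. The highest young value came from young array 1 for 54 probes, from array 2 for 66 and from array 3 for 55. The highest geriatric value came from geriatric arrays 1 to 4 for 21, 22, 78 and 54 probes. For 22 members the young arrays spanned more than 2 log2 units.

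In the authors' deposited log2 values the geriatric mean lay below the young mean for 175 of 175 members, and for 26 the ranges of the arrays overlapped. These values come from the same arrays whose flags chose the members, so nothing is read from these counts. The median difference was -0.73 in the authors' values and -0.71 after normexp background correction and quantile normalisation. The differences of the members were thus smaller there than in the background-subtracted signal, and the least folds above are no bound there. Kif23 had a difference of -4.99 in the main values, -2.31 with normexp and -2.34 in the authors' values. The values for Trim59 were -4.89, -2.22 and -2.25, those for Cdk1 -3.09, -1.02 and -1.04, and those for Clps -0.30, -0.15 and -0.16.

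Promoter sequence was looked at for the members of the cell cycle lists and for Cenpm and Trim59, which were in none of these lists. It came from RefSeq on GRCm38.p6, in windows from 250 bases before to 50 after the start site. Searched on both strands were the cell cycle homology region TTTGAA, the E2F site as TTTCCCGC or TTTGGCGC, and the CCAAT box. The matches listed for the genes below do not overlap each other. Of 32851 promoters, 17.9%, 1.07%, 0.514% and 37.4% held them. Of the 58 promoters found for 47 member symbols, 12 held TTTGAA, 2 held TTTCCCGC, 0 held TTTGGCGC and 19 held CCAAT. Cdk1 had TTTGAA starting at -71 and -15, Kif23 at 3 and Trim59, on the other strand, at -85. Cdc6 and Cenpm had TTTCCCGC on 1 strand or the other at -138 and -71. Mcm10 held CCAAT but neither TTTGAA nor an E2F match. The windows of Cdk1 and Kif23 are printed from 150 bases before to 20 after the start, with matches in capitals. A match is a description of these letters only.
Cdk1, minus strand, chr10:69352893-69353062: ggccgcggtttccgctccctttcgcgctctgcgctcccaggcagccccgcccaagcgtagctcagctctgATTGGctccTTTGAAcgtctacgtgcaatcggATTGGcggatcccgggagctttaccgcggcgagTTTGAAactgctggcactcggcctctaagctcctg
Kif23, minus strand, chr9:61946780-61946949: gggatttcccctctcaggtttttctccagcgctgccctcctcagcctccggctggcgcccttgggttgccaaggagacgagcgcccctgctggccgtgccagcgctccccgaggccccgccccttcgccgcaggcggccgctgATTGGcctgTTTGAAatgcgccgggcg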

How the data were processed

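Muscle stem cell RNA was measured on 7 Agilent 1-colour arrays (3 young, 4 geriatric). The deposited spot intensity columns came from Feature Extraction 10.7.3.1, which subtracted a spatially detrended background, detrended each array multiplicatively and put surrogates in for signals near background, per the file headers. The authors' deposited log2 table had nearly equal quantiles in all columns, and its background correction and software are not stated in the sources at hand. Controls and outlier spots were left out and spots of a probe averaged, and no spot was saturated. The number of arrays limits the precision.

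The members, gene lists and tests were chosen with earlier results of these data known. limma 3.58.1 in R 4.3.3 was run on the brightest probe of each name among probes well above background on at least 3 arrays, 2-sided, with Benjamini-Hochberg adjustment, and tested on simulated data. The other steps used Python 3.11.15, pandas 2.3.3 and matplotlib 3.10.9. Among gene symbols, the text names the 20 with the largest least fold and every member of a list. It also names the 5 nearest the limit on either side and the 5 whose other probe was highest in geriatric cells. Some members with several probes or a neighbour within 100 kb are named too, as are 3 placeholders. Of the 59 symbols, 55 matched RefSeq by accession. The plan to print only probes within coding sequence could not be applied without protein sequences, so 30 bases of mRNA probes and whole lincRNA probes are printed. Equal replicate numbers did not pair the samples: deviations from the group means correlated at -0.052, 0.064 and 0.003 for numbers 1 to 3. Alternatives were other signal corrections, detection rules and limits, slide row, replicate block and leaving out each array.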

Additional observations from a re-analysis of the deposited data

How the results depend on the processing

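The number of member names was 165 in the main setting. It was 99 with the less strict flag for a positive and significant signal, of which 15 were shared, 84 with a least fold of 2 or more, and 29 where the young mean had to lie 1 log2 unit above every geriatric array in the authors' values. With 1 detection limit for all arrays it was 87, of which 52 were shared, and with the highest limit for young and the lowest for geriatric arrays 28, both chosen after seeing the data. Leaving out 1 array widened the rule to 174 to 343 names. The median difference over the members (-2.15) was -0.71 with normexp and quantile normalisation and -0.73 in the authors' values, -2.24 under median scaling, -2.60 in slide row 1 alone and -2.25 with 4 geriatric arrays counted apart, and ran from -2.28 to -2.00 without 1 array. The 50 probes of named members were negative in all 550 values under the alternatives, which the detection rule itself favours. With normexp and quantile normalisation 48 of the 50 moved by more than the spread between samples. In the authors' values 48 did so, and in slide row 1 alone 28.

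The count of 7 limma calls over all features was 4 with normexp and 4 in the authors' values, and 0 to 8 without 1 array. With 7 arrays counted apart it was 64, with the replicate block 0 (3551 features at an unadjusted p under 0.05) and with a slide row term 0 (1630). The causes of these shifts were not tested. Signals near background limit most members: 105 of 175 lay under 1.5 times the limit on a young array, while 44 lay at 2 or more times it on every young array. No group held over 3 independent samples, so outlying samples were not tested for.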
